A study of Mus musculus with 17 samples.

Results

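The VEGF and angiopoietin family genes described here are 9 genes for secreted factors that act on blood and lymphatic vessels, taken by gene symbol: Vegfa, Vegfb, Vegfc, Vegfd, Pgf, Angpt1, Angpt2, Angptl2 and Angptl4. They were 9 of the 35896 gene IDs in the count files, and all 9 passed the filter on low counts. They were followed in 17 RNA-seq libraries of murine pancreatic stellate cells, mesenchymal cells that are known in the healthy pancreas for storing vitamin A and that turn into fibroblasts in injury and cancer. All libraries came from wild-type C57BL/6J cells of 2 lines, PSC4 and PSC5, grown in Matrigel, a basement membrane gel, and collected at day 4.

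The control group (5 libraries) received control medium, and the TGF-beta group (4 libraries) received 20 ng/mL TGF-beta, the cytokine that drives stellate cells towards a contractile, matrix-producing state. The CM group (4 libraries) received medium conditioned by pancreatic tumour organoids. The CM with neratinib group (4 libraries) received such medium with 300 nM neratinib, an irreversible kinase inhibitor of the ERBB receptors. Replicates of a line differ in passage (23 to 25 for PSC4, 27 and 28 for PSC5) and nothing states that they are separate isolates, so p-values measure the spread between these libraries. Only 2 lines were used, and the cells grew without endothelial cells.

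Background on the family is as follows. VEGF-A, the main growth factor for blood vessels, signals in endothelial cells through the receptor VEGFR2 (gene Kdr) and also binds VEGFR1 (Flt1), while VEGF-B and placental growth factor (Pgf) bind VEGFR1. VEGF-C and VEGF-D are secreted as precursors, are cut to their active forms outside the cell and act on lymphatic vessels through VEGFR3 (Flt4). Angiopoietin-1 activates the receptor TIE2 (Tek) and stabilises vessels, and angiopoietin-2 can counter it, depending on the setting. Angiopoietin-like proteins share the fold of angiopoietins but do not bind TIE2: ANGPTL4 inhibits lipoprotein lipase and ANGPTL2 is a secreted factor linked to inflammation.

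Bases upstream of the RefSeq start are shown for 4 VEGF genes, since these paralogs moved in different directions in the results that follow. The windows are 250 bases long on GRCm38.p6, and of the Vegfd window the 106 bases outside GENCODE M21 exons are given. Capitals mark matches to any of 5 searched motifs. The Vegfa window is chr17:46032378-46032627 (minus strand), the Vegfb window chr19:6987652-6987901 (minus strand), the Vegfc window chr8:54077282-54077531 (plus strand) and the Vegfd stretch chrX:164373272-164373377 (plus strand).
Vegfa: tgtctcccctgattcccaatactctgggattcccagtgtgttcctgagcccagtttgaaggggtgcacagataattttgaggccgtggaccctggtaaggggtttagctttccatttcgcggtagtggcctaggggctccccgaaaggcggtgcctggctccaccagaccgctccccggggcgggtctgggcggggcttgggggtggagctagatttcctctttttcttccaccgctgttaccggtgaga
Vegfb: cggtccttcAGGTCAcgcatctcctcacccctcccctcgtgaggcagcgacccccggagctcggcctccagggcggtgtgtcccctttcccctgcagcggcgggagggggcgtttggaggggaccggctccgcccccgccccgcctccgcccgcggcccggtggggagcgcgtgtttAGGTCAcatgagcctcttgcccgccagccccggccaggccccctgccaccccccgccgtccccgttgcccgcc
Vegfc: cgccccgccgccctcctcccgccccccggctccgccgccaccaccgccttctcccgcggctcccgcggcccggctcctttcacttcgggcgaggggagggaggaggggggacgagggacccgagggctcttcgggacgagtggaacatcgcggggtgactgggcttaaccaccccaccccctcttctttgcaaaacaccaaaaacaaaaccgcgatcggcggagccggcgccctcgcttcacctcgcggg
Vegfd: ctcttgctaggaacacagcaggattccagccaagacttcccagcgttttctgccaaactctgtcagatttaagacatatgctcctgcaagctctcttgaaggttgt
GC content of the whole 250-base windows was 59.2% for Vegfa, 76.4% for Vegfb, 71.6% for Vegfc and 42.4% for Vegfd.

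Sequence windows were present for 6 of the 9 genes (8 windows in all). Angpt1, Angpt2 and Angptl4 had none. The motifs searched on both strands were ACGTG (the core of the hypoxia response element, in 16.6% of all 32851 windows of this length), TGANTCA (AP-1, 6.75%), CAGACA (SMAD, 17.1%), GTCTAGAC (a SMAD palindrome, 0.167%) and AGGTCA (a nuclear receptor core, 14%). No searched motif overlapped another in the matches found. Vegfb had 2 AGGTCA matches, at bases -241 and -73 from its start. At a second, internal start of Vegfa, the window chr17:46025164-46025413 had 1 ACGTG match at -211 and 1 CAGACA match at -103, both on the strand opposite to the gene. The windows of Vegfc, Vegfd, Pgf and Angptl2 and the first window of Vegfa held none of the 5 letter strings, which says only that these letters are not in those bases.

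By GENCODE M21 on GRCm38, Vegfa lies at chr17:46016993-46032369, Vegfb at chr19:6982473-6987651, Vegfc at chr8:54077606-54187096, Vegfd at chrX:164373378-164402650 and Pgf at chr12:85166635-85177790. The angiopoietin genes lie at chr15:42424723-42676977 (Angpt1) and chr8:18690263-18741562 (Angpt2), and the angiopoietin-like genes at chr2:33216069-33247717 (Angptl2) and chr17:33773750-33781830 (Angptl4). Of the Angpt1 exons, 737 bases are also exon of Gm17473, an antisense gene on the opposite strand whose ID was not among those in the files. Whether the counting used strand is not given in the sources used here, so reads of Angpt1 and Gm17473 could not be told apart.

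Library totals ranged from 22168953 to 29421447 counts, and 3 counts corresponded to 0.101 to 0.137 CPM (library-size-normalised counts, the CPM unit of edgeR with TMM factors). The lowest count behind any value of the 9 genes was 27. All 10 mesenchymal marker genes examined were above 3 counts in every library. The vitamin A storage markers Lrat (0 or 1 count in every library) and Gfap (0 to 9 counts) were at or near 0. The summed level of 10 endothelial markers was 7.41 to 11.8 CPM in control, 11.1 to 27.8 CPM with TGF-beta, 6.66 to 11 CPM in CM and 7.87 to 36.9 CPM in CM with neratinib, and Cldn5 had 0 counts in every library. The 3 libraries labelled PSC4 replicate 1 lay with PSC5 rather than with PSC4 replicates 2 and 3 on a principal component (PC3) of all genes. They were kept under their labels, and calls of the 9 genes that change when they are grouped with PSC5 or removed are given with those values.

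**Figure D1:**
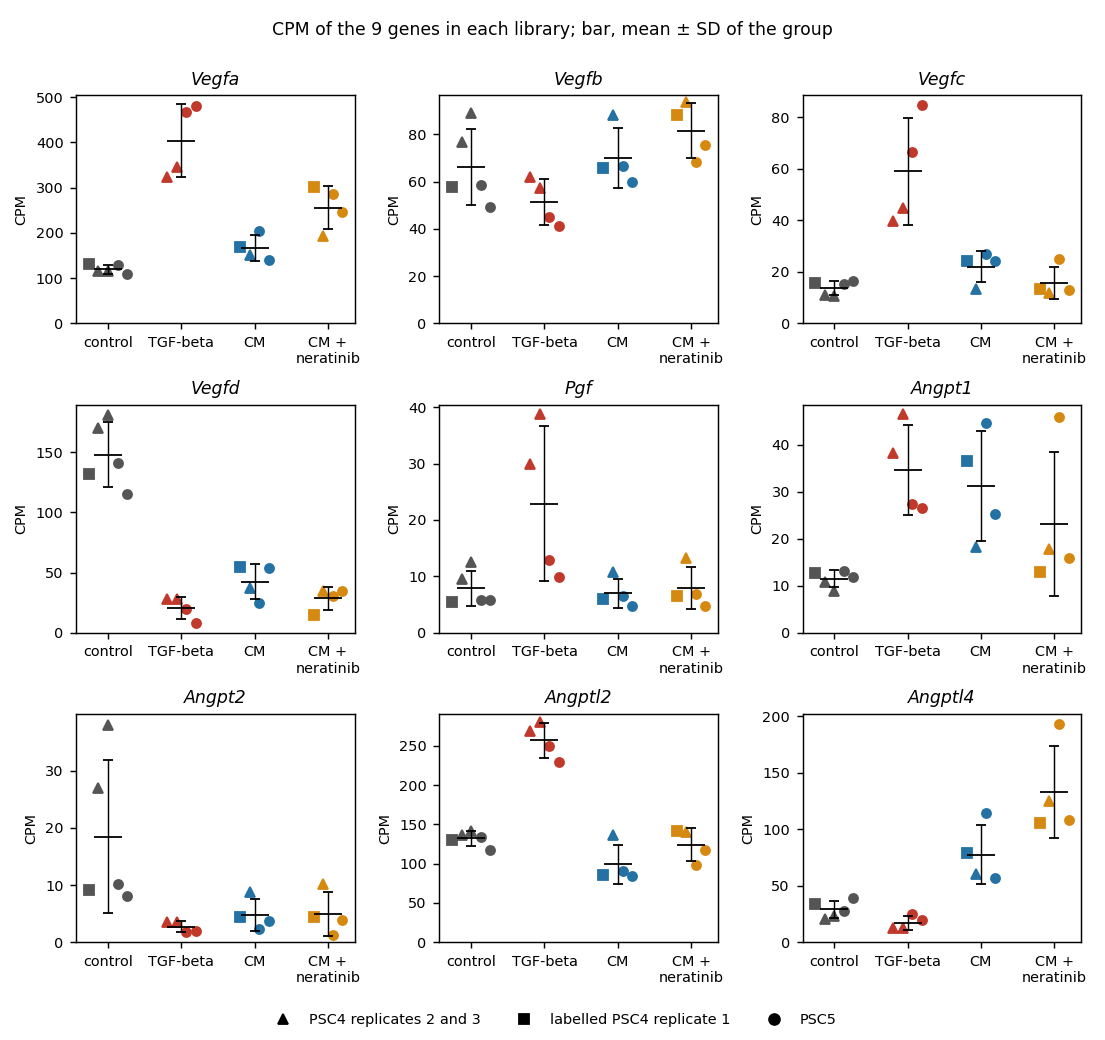
CPM of each of the 9 genes (vertical axes, linear from 0) in each library, by group. Points are libraries, with PSC4 replicates 2 and 3 as triangles, libraries labelled PSC4 replicate 1 as squares and PSC5 as circles, and bars are the group mean ± SD (n = 5, 4, 4 and 4). Vegfa with TGF-beta lies between 323 and 480 CPM, above the control range of 109 to 132 CPM, and Vegfd in every treated group lies below the control range of 115 to 181 CPM.

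In the following, values within a group are given with the PSC4 libraries first, by replicate number, and then PSC5 replicates 1 and 2. The PSC4 libraries were replicates 1, 2 and 3 in control and replicates 2 and 3 with TGF-beta. They were replicates 1 and 2 in CM and in CM with neratinib. Control and TGF-beta thus held both PSC4 replicates 2 and 3, and the CM groups held only replicate 2 of these. The members are taken by role, starting with VEGF-A. Vegfa was at 132, 116, 115, 129 and 109 CPM in the control libraries and at 323, 345, 468 and 480 CPM with TGF-beta. In CM it was at 169, 151, 204 and 139 CPM, and in CM with neratinib at 301, 193, 285 and 247 CPM. Every treated library lay above every control library, the TGF-beta libraries were the highest, and CM and CM with neratinib overlapped. The control libraries were close together, with a coefficient of variation of 8.28%.

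Relative to control, Vegfa rose with TGF-beta by 1.72 ± 0.14 on the log2 scale (± SE; 3.29-fold, edgeR adjusted p = 4.96e-07). The rise in CM was 0.44 ± 0.14 (1.36-fold, adjusted p = 0.049), and that in CM with neratinib was 1.07 ± 0.14 (2.11-fold, adjusted p = 6.13e-05). Against CM alone, the neratinib libraries were higher by 0.63 ± 0.15 (1.55-fold, adjusted p = 0.00948, higher in 4 of 4 libraries than the CM mean). Against TGF-beta, Vegfa was lower in CM by 1.27 on the log2 scale (value -1.27, adjusted p = 1.55e-05) and in CM with neratinib by 0.64 (value -0.64, adjusted p = 0.0029). The call in CM against control rested on a p-value near the threshold and was lost in 10 of 21 alternatives, 7 of them with 1 library left out (adjusted p between 0.0163 and 0.167 over all alternatives). The call in neratinib against CM was lost only when those 2 groups were fitted alone (adjusted p = 0.0709).

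Vegfb, whose product binds VEGFR1 and is tied to fatty acid handling in heart and muscle, differed little between groups. Its level was 57.6, 76.8, 89, 58.4 and 49.3 CPM in control and 61.8, 57.1, 45.1 and 41.1 CPM with TGF-beta. It was 65.7, 88.2, 66.5 and 59.8 CPM in CM and 88.4, 93.9, 68.4 and 75.6 CPM in CM with neratinib. All 4 groups overlapped except TGF-beta and CM with neratinib. Vegfb was lower with TGF-beta than in control (log2 change -0.33 ± 0.12, adjusted p = 0.0326) and higher in CM with neratinib (0.35 ± 0.11, adjusted p = 0.0233), and these calls were lost in 8 and 6 of 21 alternatives. In CM the difference from control was 0.13 ± 0.11 (adjusted p = 0.485, 95% interval -0.11 to 0.37). Against TGF-beta, Vegfb was higher in CM (0.46, adjusted p = 0.00775) and in CM with neratinib (0.68, adjusted p = 0.000405). Between neratinib and CM alone the difference was 0.22 ± 0.12 (adjusted p = 0.218), and a block of line plus replicate number gave adjusted p = 0.0453.

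Pgf, for placental growth factor, had the lowest level per kilobase of the 5 VEGF family genes in control. It was at 5.53, 9.58, 12.6, 5.75 and 5.85 CPM in control and at 30, 38.7, 12.9 and 9.93 CPM with TGF-beta. The CM libraries held 6.01, 10.7, 6.46 and 4.66 CPM and the neratinib libraries 6.43, 13.3, 6.92 and 4.81 CPM. PSC4 replicates 2 and 3 were the highest libraries within each group that had them, so the control and TGF-beta ranges overlapped, although within each line all TGF-beta libraries lay above all control libraries. Pgf rose with TGF-beta by 1.5 ± 0.29 (2.83-fold, adjusted p = 0.000743). In CM and CM with neratinib the differences from control were -0.08 ± 0.29 and 0.08 ± 0.29 (adjusted p = 0.887 and 0.854, with 95% intervals of -0.7 to 0.54 and -0.55 to 0.7), and both were lower than TGF-beta by over 1 on the log2 scale (-1.58, adjusted p = 0.00108, and -1.42, adjusted p = 0.00178).

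The lymphangiogenic factors Vegfc and Vegfd changed in opposite directions with TGF-beta. Vegfc was at 15.8, 11, 10.5, 15.2 and 16.3 CPM in control and at 39.5, 44.6, 66.6 and 84.7 CPM with TGF-beta. It was at 24.2, 13.2, 26.7 and 24 CPM in CM and at 13.4, 11.8, 25 and 12.9 CPM in CM with neratinib. The TGF-beta libraries lay above all others, and 3 of 4 CM libraries and 1 of 4 neratinib libraries lay above the control range. Vegfc rose with TGF-beta by 2 ± 0.2 (3.99-fold, adjusted p = 3.6e-06), and was lower than that in CM (-1.38, adjusted p = 0.000158) and CM with neratinib (-1.88, adjusted p = 1e-05). In CM against control the difference was 0.62 ± 0.2 and missed the threshold (adjusted p = 0.0547). Of 21 alternatives 6 called it, including the replicate block (0.56, adjusted p = 0.0307) and the fit that grouped the libraries labelled PSC4 replicate 1 with PSC5 (0.55 ± 0.16, adjusted p = 0.0242). Between neratinib and control the difference was 0.12 ± 0.21 (adjusted p = 0.658) and between neratinib and CM it was -0.49 ± 0.21 (adjusted p = 0.115). Without neratinib PSC5 replicate 1, whose 25 CPM stood apart from the other 3 libraries, Vegfc was called lower in neratinib than in CM (adjusted p = 0.0303).

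Vegfd was at 132, 170, 181, 141 and 115 CPM in control and at 27.7, 27.7, 20 and 8.26 CPM with TGF-beta. In CM it was at 54.4, 36.9, 24.3 and 54.1 CPM, and in CM with neratinib at 14.8, 34.9, 30.7 and 34.7 CPM. Every control library lay above every treated library, and the 3 treated groups overlapped each other. The fall from control was 7.05-fold with TGF-beta (log2 change -2.82 ± 0.35, adjusted p = 2.03e-05), 3.4-fold in CM (-1.77 ± 0.33, adjusted p = 0.00374) and 4.92-fold in CM with neratinib (-2.3 ± 0.34, adjusted p = 0.000155). These 3 calls held in every alternative run. Vegfd was higher in CM than with TGF-beta (1.05 ± 0.34, adjusted p = 0.0269), a call lost without CM PSC4 replicate 1, CM PSC5 replicate 2 or TGF-beta PSC5 replicate 2 (adjusted p up to 0.0927). Between neratinib and CM the difference was -0.53 ± 0.34 (adjusted p = 0.289, 95% interval -1.26 to 0.19), and between neratinib and TGF-beta it was 0.52 ± 0.35 (adjusted p = 0.24).

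Levels of different genes can be compared only per transcript length. Per kilobase of merged exons, Vegfd stood highest of the 9 genes in control at 61.4 ± 11.3 CPM per kilobase (SD, n = 5), followed by Vegfb at 41.3 ± 10.1 and Vegfa at 28.1 ± 2.29. With TGF-beta, Vegfa came first at 94.3 ± 19 CPM per kilobase (SD, n = 4), then Angptl2 at 40.9 ± 3.56 and Vegfb at 31.9 ± 6.09. In CM, Vegfb (43.6 ± 7.77) and Vegfa (38.7 ± 6.61) were first and each mean lay within the SD of the other. With neratinib added, Vegfa (59.9 ± 11.2) was followed by Vegfb (50.8 ± 7.26) and Angptl4 (37.6 ± 11.5). Among the 5 VEGF family genes, the share of Vegfa in the summed level per kilobase was 20.2% in control, 56.5% with TGF-beta, 34.7% in CM and 45.4% in CM with neratinib. The share of Vegfd was 44.2% in control and 5.21%, 15.8% and 9.07% in the same treated groups. The ranking depends on the length used: with the median length of protein-coding transcripts, Vegfa was first in every group, with 42.9% of the VEGF total in control and 77.3% with TGF-beta, and Vegfd was second in control.

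**Figure D2:**
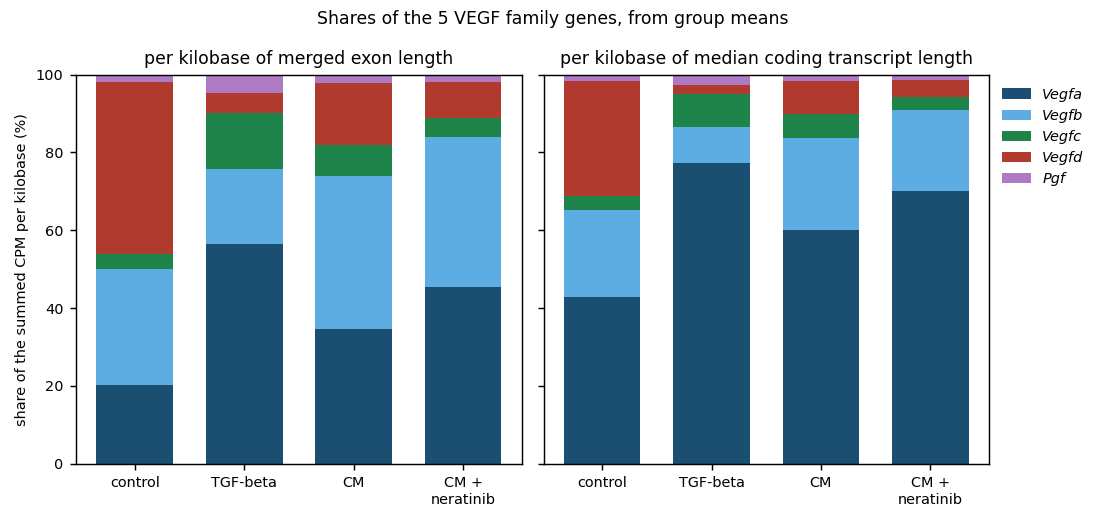
Shares of the 5 VEGF family genes in their summed CPM per kilobase (vertical axes, percent), from group means, with gene length taken as merged exons (left) or as the median protein-coding transcript (right). The Vegfd block shrinks from 44.2% in control to 5.21% with TGF-beta on the left, and Vegfa is the largest block in every group on the right.

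The angiopoietins Angpt1 and Angpt2 moved in opposite directions. Angpt1 was at 12.8, 10.7, 8.81, 13.1 and 11.9 CPM in control and at 38.2, 46.6, 27.5 and 26.5 CPM with TGF-beta. In CM it was at 36.5, 18.3, 44.7 and 25.2 CPM, and in CM with neratinib at 13, 17.8, 45.9 and 15.9 CPM. All TGF-beta and CM libraries lay above the control range, while neratinib PSC4 replicate 1 lay inside it. Angpt1 rose with TGF-beta (1.61 ± 0.34, 3.05-fold, adjusted p = 0.00152), in CM (1.42 ± 0.34, 2.67-fold, adjusted p = 0.014) and in CM with neratinib (0.96 ± 0.34, 1.95-fold, adjusted p = 0.0334). The last of these calls was lost in 7 of 21 alternatives, 5 of them with 1 library left out.

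The Angpt1 value in CM with neratinib rested on PSC5 replicate 1 at 45.9 CPM: without it the change from control was 0.44 and was not called, and Angpt1 was then called lower than in CM (-1, adjusted p = 0.0199) and lower than with TGF-beta (-1.16, adjusted p = 0.00456). With all libraries, the difference between neratinib and CM was -0.45 ± 0.35 (adjusted p = 0.393, 95% interval -1.2 to 0.3), and that between neratinib and TGF-beta was -0.64 ± 0.36 (adjusted p = 0.16). The CM call for Angpt1 was lost without CM PSC5 replicate 1 (adjusted p = 0.058). CM and TGF-beta differed by -0.19 ± 0.35 (adjusted p = 0.709).

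Angpt2 was at 9.14, 27, 38.1, 10.2 and 8.05 CPM in control and at 3.57, 3.47, 1.72 and 1.95 CPM with TGF-beta. In CM it was at 4.35, 8.71, 2.22 and 3.69 CPM, and in CM with neratinib at 4.43, 10.2, 1.17 and 3.8 CPM. All TGF-beta libraries lay below all control libraries. In both CM groups PSC4 replicate 2 was the highest library and reached into the control range, in which PSC4 replicates 2 and 3 were also the highest. Angpt2 fell 6.01-fold with TGF-beta (log2 change -2.59 ± 0.44, adjusted p = 0.000276), 3.47-fold in CM (-1.79 ± 0.41, adjusted p = 0.0116) and 3.53-fold in CM with neratinib (-1.82 ± 0.41, adjusted p = 0.00293), and these calls held in every alternative run. CM with and without neratinib differed by -0.03 ± 0.43 (95% interval -0.93 to 0.88). Angpt2 in CM and in CM with neratinib was higher than with TGF-beta by 0.79 ± 0.44 and 0.77 ± 0.44 (adjusted p = 0.177 and 0.173). Grouping the libraries labelled PSC4 replicate 1 with PSC5 gave 1.16 ± 0.33 and 1.13 ± 0.33 for Angpt2 (adjusted p = 0.00956 and 0.00942), removing them gave 1.04 and 0.99 (adjusted p = 0.0276 and 0.0323), and the replicate block gave 1.11 and 1.07 (adjusted p = 0.0169 and 0.0188).

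The number of Angpt1 counts per Angpt2 count was 1.4, 0.396, 0.231, 1.28 and 1.48 in control. It was 10.7, 13.4, 16 and 13.6 with TGF-beta, 8.39, 2.11, 20.2 and 6.84 in CM, and 2.94, 1.74, 39.3 and 4.17 in CM with neratinib. Every treated library lay above every control library. The ratio was examined after the values of both genes were known and carries no test, and it is a ratio of counts, not corrected for the different lengths of the transcripts.

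**Figure D3:**
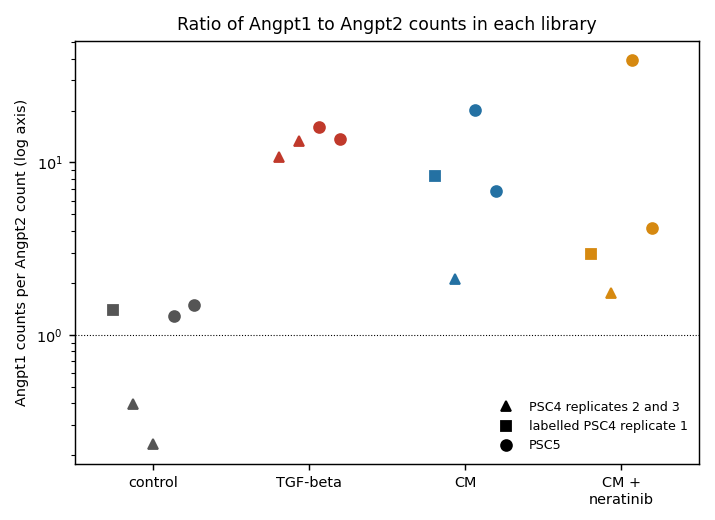
Angpt1 counts per Angpt2 count in each library (vertical axis, log scale), by group, with PSC4 replicates 2 and 3 as triangles, libraries labelled PSC4 replicate 1 as squares and PSC5 as circles. The dotted line marks equal counts. Control libraries lie between 0.231 and 1.48, and the TGF-beta libraries between 10.7 and 16.

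The angiopoietin-like genes Angptl2 and Angptl4 also separated the treatments. Angptl2 was at 130, 136, 141, 134 and 117 CPM in control and at 269, 280, 250 and 229 CPM with TGF-beta. In CM it was at 85.7, 136, 90.4 and 84.3 CPM, and in CM with neratinib at 142, 140, 97.8 and 117 CPM. The TGF-beta libraries lay above all others, and 3 of 4 CM libraries lay below the control range. Angptl2 rose with TGF-beta by 0.99 ± 0.11 (1.98-fold, adjusted p = 6.66e-06) and was lower in CM than in control (-0.4 ± 0.11, adjusted p = 0.0266), a call lost in 7 of 21 alternatives. With neratinib the difference from control was -0.07 ± 0.11 (adjusted p = 0.611, 95% interval -0.3 to 0.16). The difference between neratinib and CM for Angptl2 was 0.32 ± 0.11 (adjusted p = 0.0581), with 0.34 (adjusted p = 0.0285) when the libraries labelled PSC4 replicate 1 were grouped with PSC5, and it was also called with the replicate block (adjusted p = 0.037), by DESeq2, and without CM PSC4 replicate 2 or neratinib PSC5 replicate 1. Against TGF-beta, Angptl2 was lower in CM by 2.6-fold (-1.38, adjusted p = 6.3e-07) and in CM with neratinib by 2.08-fold (-1.06, adjusted p = 5.31e-06).

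Angptl4, for the inhibitor of lipoprotein lipase, was highest in CM with neratinib and lowest with TGF-beta. Its level was 33.5, 20.8, 23.2, 27.4 and 39.4 CPM in control and 12.4, 12.2, 24.9 and 19.2 CPM with TGF-beta. It was 79.1, 60.5, 114 and 56.8 CPM in CM and 106, 125, 193 and 108 CPM in CM with neratinib. All libraries of the CM groups lay above all control libraries, and TGF-beta overlapped with control. In each line and replicate number the neratinib library was higher than the CM library, although the ranges of those groups overlapped.

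Relative to control, Angptl4 fell with TGF-beta (-0.83 ± 0.23, 1.78-fold lower, adjusted p = 0.0105), rose in CM (1.39 ± 0.22, 2.62-fold, adjusted p = 0.00141) and rose in CM with neratinib (2.16 ± 0.23, 4.46-fold, adjusted p = 1.01e-05). Against TGF-beta, Angptl4 was 4.66-fold higher in CM and 7.93-fold higher in CM with neratinib (adjusted p = 8.98e-06 and 5.17e-07). The rise from CM to CM with neratinib was 0.77 ± 0.23 (1.7-fold, adjusted p = 0.0323) and was lost in 7 of 20 alternatives, 5 of them with 1 library left out (adjusted p up to 0.11).

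**Figure D4:**
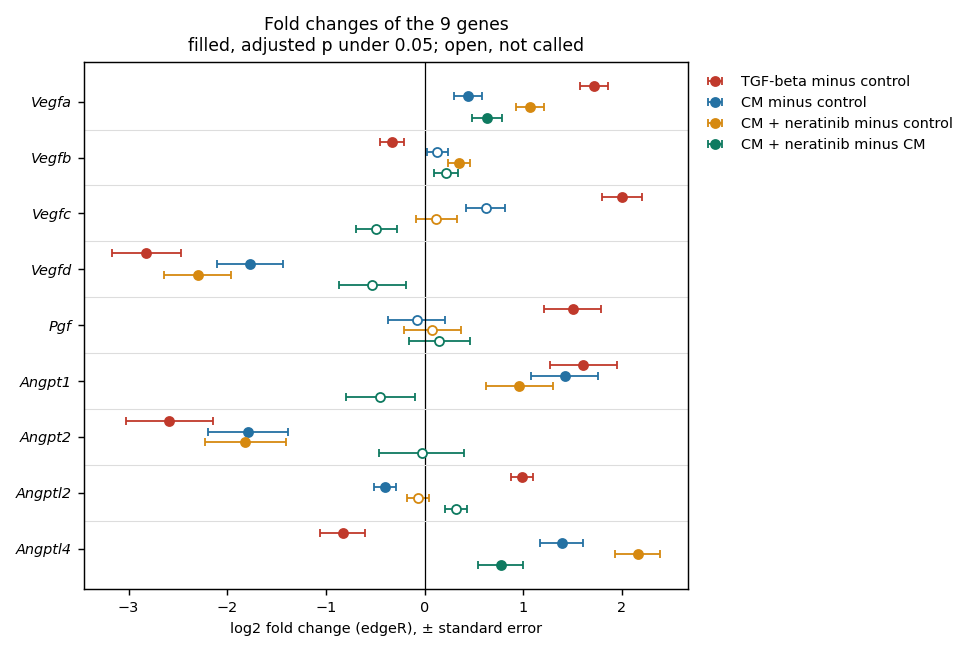
Log2 fold changes of the 9 genes with their standard errors (horizontal axis) in the 3 comparisons with control and in CM with neratinib against CM. Filled points have an adjusted p under 0.05 and open points do not. Vegfd and Angpt2 lie left of 0 in every comparison with control, and Angptl4 is the gene at -0.83 with TGF-beta and at 1.39 and 2.16 in the CM groups.

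Counted together, all 9 genes were called in TGF-beta against control, 5 higher and 4 lower, where 40.2% of all 13923 tested genes were called (19.7% higher and 20.5% lower). Against control, the CM libraries gave 6 called genes, 3 higher (Vegfa, Angpt1, Angptl4) and 3 lower (Vegfd, Angpt2, Angptl2), where 14.2% of all genes were called (7.05% higher and 7.14% lower); without CM PSC5 replicate 1 the count was 3, where 5.68% of all genes were called. In CM with neratinib against control 6 were called, 4 higher (Vegfa, Vegfb, Angpt1, Angptl4) and 2 lower (Vegfd, Angpt2), where 43.1% of all genes were called (22.2% higher and 20.9% lower). Because these comparisons share the control libraries, their calls are not independent of each other.

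Between CM with neratinib and CM, 2 of the 9 genes were called, Vegfa and Angptl4, both higher, where 20.5% of all genes were called (10.8% higher and 9.63% lower), so the share of the family was near the background. The count was 4 under the replicate block (Vegfa, Vegfb, Angptl2 and Angptl4) where 32.8% of all genes were called, and 0 with those groups fitted alone, where 4.54% were. Against TGF-beta, 7 genes were called in CM (3 higher, 4 lower), with 35.3% of all genes called (17.8% higher and 17.5% lower). In CM with neratinib against TGF-beta 6 were called (2 higher, 4 lower), with 44% of all genes called (23.1% higher and 20.9% lower).

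The lines differed in 4 of the 9 genes, where 6.97% of all genes were called. All PSC5 libraries were at later passages than all PSC4 libraries, so line and passage cannot be told apart. PSC5 was lower than PSC4 in Angpt2 (-1.29 ± 0.3, adjusted p = 0.0315), Pgf (-0.9 ± 0.21, adjusted p = 0.0331) and Vegfb (-0.39 ± 0.08, adjusted p = 0.0249), and higher in Vegfc (0.55 ± 0.15, adjusted p = 0.0431). For Pgf and Angpt2 the libraries labelled PSC4 replicate 1 were near the PSC5 values in control and CM. With those libraries grouped with PSC5, 7 of the 9 genes were called between the lines, where 43.4% of all genes were called, and with them removed also 7, where 42.6% were. The genes gained were Vegfa (0.31 with adjusted p = 0.0105 and 0.29 with 0.0273), Angptl2 (-0.28 with 0.00935 and -0.31 with 0.00412) and Angptl4 (0.52 with 0.0205 and 0.57 with 0.0213). With single libraries left out the count was between 0 and 6, and was 6 without control PSC4 replicate 1, where 17.3% of all genes were called. It was 0 without CM PSC4 replicate 2 (0.0284% of all genes called), neratinib PSC4 replicate 2 (1.31%) or control PSC5 replicate 2 (0%). It was also 0 without any 1 of the TGF-beta libraries (0.107% to 0.887%), so calls were scarce over all genes in these fits.

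No treatment effect on the 9 genes was called as different between the lines by edgeR, and 0% of all genes were called in each of the 3 interaction tests (601, 43 and 237 genes had an unadjusted p under 0.05 for TGF-beta, CM and neratinib against CM). DESeq2 called 27, 0 and 1 genes there. The intervals were wide: for Angpt2 with TGF-beta the difference between the lines was 0.5 with a 95% interval from -1.47 to 2.47, and for Vegfa it was 0.53 (-0.07 to 1.14).

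The conditioned media carry 1 of 2 codes in the labels, T6 (replicate 2 of each line) and T8 (replicate 1), without an explanation. None of the 9 genes was called between T6 and T8 by edgeR, where 0% of all genes were called, 906 genes had an unadjusted p under 0.05 and DESeq2 called 33. The fits of the medium code held group and a block of line plus replicate number as terms. Their difference is therefore that beyond the difference between replicate numbers in the control and TGF-beta libraries. It is not the plain difference between T6 and T8 libraries. In the edgeR fit Angpt1 had the largest difference of the 9 genes, -0.8 with a 95% interval from -1.79 to 0.19. Summed transcripts of 10 epithelial markers were at 15.8 to 23.6 CPM in control and 14.8 to 20.4 CPM with TGF-beta, but at 143 to 318 CPM in the 4 T6 libraries and 9.75 to 51.3 CPM in the 4 T8 libraries. Of these markers 7 of 10 rose against control in CM, where 7.05% of all genes were called higher. In CM with neratinib 9 of 10 rose, where 22.2% were called higher. Krt8 was at 22.2 and 35.3 CPM on average in the 2 groups and at the floor of 3 or fewer counts in control. In the T8 libraries labelled PSC4 replicate 1, where the epithelial sums were 20.3 and 9.75 CPM, Vegfa was at 169 and 301 CPM, Vegfd at 54.4 and 14.8 CPM, Angptl4 at 79.1 and 106 CPM and Angpt2 at 4.35 and 4.43 CPM, outside the control ranges. In the same libraries Angpt1 (36.5 and 13 CPM), Vegfc (24.2 and 13.4 CPM) and Angptl2 (85.7 and 142 CPM) were not on 1 side: Angpt1 and Vegfc lay above the control range in CM and inside it with neratinib, and Angptl2 lay below it in CM and just above it with neratinib. Vegfb (65.7 and 88.4 CPM) and Pgf (6.01 and 6.43 CPM) lay inside the control ranges. Whether the epithelial transcripts play a part in these levels was not tested. In bulk RNA, fewer cells of a type and less RNA per cell cannot be told apart.

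The receptor list held the VEGF receptors, TIE2 and TIE1, and the neuropilins, co-receptors that bind VEGF and semaphorins. Of its 7 genes 6 were tested (Tie1 was not). With TGF-beta 2 of the 6 rose, where 40.2% of all genes were called and 19.7% were called higher. Flt1 went from 5.62 to 20.1 CPM (1.95 ± 0.48, adjusted p = 0.0048). Kdr went from 1.48 to 2.53 CPM (0.86 ± 0.29, adjusted p = 0.0285, lost in 7 of 21 alternatives). Of 10 endothelial markers 5 were tested, and 3 of them were also called higher with TGF-beta: Vwf (1.77 to 11.3 CPM), Pecam1 and Erg. The other 2 were not called. In CM, where 14.2% of all genes were called, 2 of the 6 changed: Flt4 rose from 2.16 to 5.11 CPM (1.21 ± 0.19, adjusted p = 0.00124) and Nrp1 fell from 203 to 83 CPM (-1.25 ± 0.2, adjusted p = 0.00122).

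In CM with neratinib against control, where 43.1% of all genes were called, Flt4 rose (1.28, adjusted p = 0.000163) and 4 receptor genes fell: Flt1, Kdr, Nrp1 (-1.4 ± 0.2, adjusted p = 0.000103) and Tek. Tek went from 1.27 to 0.18 CPM (log2 change -2.64) and ended near the floor, as 3 counts were 0.117 to 0.137 CPM in the neratinib libraries. The calls for Flt1 and Kdr were each lost in 8 of 21 alternatives, for Kdr among them the fit without the libraries labelled PSC4 replicate 1 (-0.79, adjusted p = 0.0805). None of the 6 was called between neratinib and CM. The median log2 change of the receptor list was -0.17 with TGF-beta, -0.7 in CM and -1.13 in CM with neratinib, beside -0.02, 0 and 0 over all genes. The replicate block, and also grouping the libraries labelled PSC4 replicate 1 with PSC5, called 4 receptor genes in CM against control, where 23.3% and 21.4% of all genes were called. In CM with neratinib against control 1 of the 5 tested endothelial markers was called higher and 1 lower. The endothelial sum there had a median of 13.7 CPM, against 8.33 CPM in control. How much the endothelial transcripts contribute to Flt1, Kdr and Tek was not tested.

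Of 6 genes for the processing of the VEGF-C and VEGF-D precursors 5 were tested (Pcsk5 was not). With TGF-beta 2 rose and 3 were not called, where 40.2% of all genes were called and 19.7% were called higher. Ccbe1, the cofactor that brings VEGF-C to its protease, rose with TGF-beta from 9.93 to 110 CPM (3.38 ± 0.38, 10.4-fold, adjusted p = 8.37e-06), in the same group in which Vegfc rose. Furin, a proprotein convertase that cuts VEGF-C and VEGF-D, rose from 142 to 231 CPM (0.7 ± 0.07, adjusted p = 2.68e-06). In CM, Ccbe1 (1.29 ± 0.36, adjusted p = 0.0268) and Adamts3, the protease that works with it (1.71 ± 0.46, adjusted p = 0.0249), rose. That is 2 of 5 beside 14.2% of all genes called (7.05% higher), and both calls were lost in 7 of 21 alternatives. In CM with neratinib against control, Ccbe1 rose (0.98, adjusted p = 0.0374) and the convertase gene Pcsk7 fell (-0.22, adjusted p = 0.0256), calls lost in 9 and 7 of 21 alternatives, and 2 of 5 is near the 43.1% of all genes. Without the libraries labelled PSC4 replicate 1, Ccbe1 was at 1.27 in CM (adjusted p = 0.0543) and 0.69 with neratinib (adjusted p = 0.218), and Pcsk7 was at -0.14 (adjusted p = 0.111). Under the replicate block Ccbe1 was not called in either CM group (adjusted p = 0.0505 in CM and 0.0874 with neratinib). None was called between neratinib and CM. The list medians were 0, 0.22 and 0.15 in the 3 comparisons with control.

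Of 6 further angiopoietin and angiopoietin-like genes 3 were tested. None was called with TGF-beta, Angpt4 rose in CM (1.55 to 6.6 CPM, 2.11 ± 0.39, adjusted p = 0.00328) and all 3 rose in CM with neratinib: Angpt4 (1.26, adjusted p = 0.0176), Angptl6 (1.73, adjusted p = 8.31e-05) and Angptl8 (1.79, adjusted p = 0.000895). The shares of all genes called in these 3 comparisons were 40.2%, 14.2% and 43.1%, and with 3 genes a share says little. Angptl6 was also higher in neratinib than in CM alone (3.5 to 12.2 CPM, 1.8 ± 0.26, adjusted p = 0.000491). With the replicate block 2 of these genes were called in CM and 3 in neratinib against CM, where 23.3% and 32.8% of all genes were. The list medians were 0.26 with TGF-beta, 0.79 in CM and 1.73 in CM with neratinib.

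All 8 secreted inhibitors of angiogenesis were tested. With TGF-beta 3 rose, namely Serpinf1 (for PEDF, 1.19 ± 0.21), Vash1 (for vasohibin, 3.72 ± 0.26, from 0.489 to 6.68 CPM) and Col18a1 (the collagen that yields endostatin, 2.04 ± 0.15), and Adamts1, a protease that binds VEGF-A, fell (-2.65 ± 0.28), so that 4 of 8 were called beside 40.2% of all genes. In CM, with 3 of 8 called beside 14.2%, Cxcl10 rose (1.58 ± 0.3, adjusted p = 0.00375), while Adamts1 (-1.18, adjusted p = 0.0101) and Timp3 (-1.27, adjusted p = 0.0431, lost in 9 of 21 alternatives) fell. In CM with neratinib against control, Serpinf1 rose and 5 fell (Thbs1, Thbs2, Adamts1, Timp3 and Cxcl10), which is 6 of 8 beside 43.1% of all genes. The Cxcl10 call was lost in 7 of 21 alternatives, among them the fit without the libraries labelled PSC4 replicate 1 (-0.83, adjusted p = 0.0669). Against CM alone 3 of 8 fell with neratinib, beside 20.5% of all genes called (9.63% lower). They were the thrombospondins Thbs1 (-1.23 ± 0.34, adjusted p = 0.0216) and Thbs2 (-1.43 ± 0.27, adjusted p = 0.00263) and the chemokine gene Cxcl10 (-2.48 ± 0.33, adjusted p = 0.00034). The list medians were 0.32, -0.13 and -0.96 in the 3 comparisons with control and -0.59 in neratinib against CM, where the replicate block called 5 of the 8 beside 32.8% of all genes.

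Vegfa and Angptl4 are both known as genes induced by low oxygen through HIF, and 12 other hypoxia-induced genes were examined. With TGF-beta, where 19.7% of all genes were called higher, 9 of the 12 rose and Adm, for the vasodilator peptide adrenomedullin, fell (-2.57 ± 0.61, adjusted p = 0.0038). Among the 9 were Pdk1 (1.91 ± 0.34), Egln3 (2.09 ± 0.33) and Pgk1 (1.28 ± 0.19). In CM 8 rose (7.05% of all genes), among them the glycolytic genes Hk2 (1.15 ± 0.17) and Ldha (0.93 ± 0.16), and in CM with neratinib 9 rose (22.2% of all genes). Without CM PSC5 replicate 1 the count called in CM was 5, where 5.68% of all genes were called. The calls for Bnip3, Pdk1 and Pgk1 were lost there, and that for Bnip3 was lost in 6 of 21 alternatives. Against CM alone 2 of 12 rose with neratinib, where 10.8% of all genes were called higher and 20.5% in either direction. They were the glucose transporter gene Slc2a1 (0.53 ± 0.18, adjusted p = 0.0477) and Hk2 (0.57 ± 0.18, adjusted p = 0.0383), calls lost in 10 and 8 of 20 alternatives. Neither was called without the libraries labelled PSC4 replicate 1 (Slc2a1 0.33, adjusted p = 0.255, and Hk2 0.41, adjusted p = 0.0592), while the replicate block called 4 of the list beside 32.8% of all genes. The list medians were 1.1 with TGF-beta, 0.81 in CM, 1.21 in CM with neratinib and 0.41 in neratinib against CM, beside medians over all genes of -0.02, 0, 0 and 0. Angptl4 fell with TGF-beta while most of this list rose, and Vegfa rose.

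Angptl4 is also a known target of the PPAR nuclear receptors, which respond to fatty acids. Of 8 other PPAR-induced genes 6 were tested. With TGF-beta the lipid droplet gene Plin2 rose (0.72 ± 0.22) and Pdk4, Cpt1a and Plin4 fell, 4 of 6 beside 40.2% of all genes, and the Plin4 call (-1.15) was lost in 5 of 21 alternatives. In CM, with 3 of 6 called beside 14.2%, Fabp4 rose (3.07 ± 0.54, from 0.95 to 8.06 CPM) and Pdk4 and Plin4 fell. In CM with neratinib against control, Cpt1a, Plin2, Fabp4 and Acadl rose and Pdk4 fell, 5 of 6 beside 43.1% of all genes. Against CM alone, 3 of 6 rose with neratinib, beside 20.5% of all genes called (10.8% higher). They were Plin2 (1.47 ± 0.24, adjusted p = 0.00102) and the fatty acid oxidation genes Cpt1a (0.44 ± 0.08, adjusted p = 0.00247) and Acadl (0.54 ± 0.09, adjusted p = 0.00186). The list medians were -0.49, -0.05 and 0.44 in the 3 comparisons with control and 0.49 in neratinib against CM.

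Genes with the most similar profile were ranked by the root mean square difference of centred log2 CPM over the 17 libraries, among 10826 genes with a mean of at least 5 CPM. For Vegfa the nearest were Pfkp (0.259), Frrs1 (0.261) and Nudt18 (0.283), against a median of 0.724 over all genes. For Vegfc they were Inava (0.324), Ldlrad4 (0.343) and Lef1 (0.347), for Vegfd Adamts1 (0.458), Id4 (0.483) and Lmod1 (0.492), and for Pgf Crip1 (0.329), Sema6d (0.374) and AA414768 (0.376). For Angpt1 they were Slc7a2 (0.318), Igfbp7 (0.35) and Timp1 (0.39), for Angpt2 Mylk (0.479), Cd24a (0.615) and Ahrr (0.642), for Angptl2 Fgfrl1 (0.149), Praf2 (0.208) and Dock5 (0.209), and for Angptl4 Rdh10 (0.393), Dgat2 (0.424) and Bcl3 (0.447). Vegfb, which varied little, was nearest to Scly (0.089), Cnppd1 (0.107) and Tshz1 (0.116), where the median was 0.412. Within the family, Pgf and Angptl2 were nearest to each other (0.512), as were Vegfd and Angpt2 (0.832), the pair that fell in every treated group. The median over all genes was 0.887 for Pgf and 0.594 for Angptl2, so for Angptl2 the distance to Pgf was only a little under the median. For Vegfd and Angpt2 the medians were 1.296 and 1.326.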

How the data were processed

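RNA was sequenced from 17 libraries, and groups, lines, replicate numbers, passages and medium codes were taken from the labels. Per the submitters' processing notes, Salmon 1.4.0, DESeq 2 and the builds GRCm38 and mm10 were used. The authors deposited 1 file of expected counts (estimated counts per Ensembl gene ID) for each library, without scaling for depth or length. Rounding these to whole numbers moved no library total by more than 307.9. Symbols were matched for 35437 of 35896 gene IDs.

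The main test was the edgeR 4.0.16 quasi-likelihood test (R 4.3.3) over all 17 libraries with TMM factors and group and cell line as terms. The filterByExpr filter (10 counts, 15 in total) left 13923 genes. A gene is called when its p, adjusted over all tested genes by Benjamini-Hochberg, is under 0.05. Alternatives were DESeq2 1.42.0, other scalings and filters, no line term, a replicate block, 2 groups alone, unrounded counts, single libraries left out, and the libraries labelled PSC4 replicate 1 removed or grouped with PSC5. The main test was also run on simulated counts, drawn independently for each library without line or replicate effects. That run does not show how the test behaves with libraries that share a passage.

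The members, lists and named genes (members, called genes of 6 pathway lists, 3 nearest profiles per member) were chosen with earlier results of these data known. Libraries of the same line and number, which share a passage per the labels, had correlated deviations in all 22 pairs (r between 0.12 and 0.635), so the block is given where it changes a call. Counts of 3 or fewer are treated as at the floor, which covers counting error only. Gene lengths and positions come from GENCODE M21, promoter windows from RefSeq (GRCm38.p6).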

Additional observations from a re-analysis of the deposited data

Results flagged for a closer look

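Libraries far from the rest of their group were looked for in 36 groups of 4 or 5 values (9 genes in 4 groups), of which chance marks about 1 in 20. In 3 groups of 4 the gap to the nearest library exceeded the 95% critical share of the whole range. Vegfc was at 25 CPM in neratinib PSC5 replicate 1, against 11.8 to 13.4 CPM in the other 3 libraries of CM with neratinib (gap 0.879 of the range). Angpt1 was at 45.9 CPM in the same library, against 13 to 17.8 CPM in the others (0.854). Angptl2 was at 136 CPM in CM PSC4 replicate 2, against 84.3 to 90.4 CPM in the other CM libraries (0.882). No member moved in opposite directions in the 2 lines with the libraries of each line all on 1 side, in 27 comparisons of lines.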

How the results depend on the processing

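Over the 6 group comparisons, 36 results for the 9 genes were called, and their 741 values under the alternatives kept the direction; 690 stayed past the threshold and 51 did not. Of 366 values of the 18 results not called, 23 passed the threshold and 17 changed sign. The other tests (lines, interactions, medium code) gave 963 values, of which 75 changed sign. Calls of list genes (124 results, 2546 values) were lost in 156 values and never changed sign.

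In the 6 comparisons and between the lines, sign changes concerned results that were not called. Interaction values also changed sign: for neratinib against CM, Vegfd went from 0.61 to -0.65 and Angpt1 from 0.65 to -0.47 with the libraries labelled PSC4 replicate 1 grouped with PSC5. Pgf in CM against control was 0.07 with the replicate block and 0.02 with the libraries labelled PSC4 replicate 1 grouped with PSC5, and lay between -0.23 and 0.11 with single libraries left out. Pgf in CM with neratinib against control was -0.04 with library totals only and -0.1 to 0.27 with single libraries left out; against CM it was -0.03 to 0.34. Angpt2 in neratinib against CM was 0.05 without a line term and -0.36 to 0.23 with single libraries left out. The same range was -0.37 to 0.03 for Angpt1 in CM against TGF-beta, -0.06 to 0.26 for Vegfc in neratinib against control and -0.01 to 0.32 for Angpt1 between the lines. The cause was not tested.

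The counts of the 9 genes called are given here with the share of all genes called in the same fits in parentheses. In neratinib against CM the count was 4 with the replicate block (32.8%) and 1 without a line term (16%). It was 0 with those 2 groups alone, which hold fewer libraries (4.54%), and 1 to 4 with single libraries left out (12.4% to 26.1%). In CM against control it was 3 to 7 with single libraries left out (5.68% to 12.9%). Between the lines it was 7 with the libraries labelled PSC4 replicate 1 grouped with PSC5 (43.4%) and 7 with them removed (42.6%). With single libraries left out it was 0 to 6 between the lines (0% to 21.7%). The block changed no other call of the 9 genes in the 6 comparisons than those given with the results. Over all genes, 1976 calls in CM against control became 3240 with the block, 2986 with those libraries grouped with PSC5 and 801 without CM PSC5 replicate 1. The 2850 calls in neratinib against CM became 4563 with the block and 602 with 2 groups alone, and the 970 between the lines became 2207 by DESeq2, 6046 with the grouping, 5980 with the removal and 0 without control PSC5 replicate 2.

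Scaling by library totals only moved the median of all genes by over 0.1 in TGF-beta (-0.153) and neratinib (-0.111) against control. The share of called genes that were higher then went from 49% to 28.7% and from 51.4% to 32.2%. For CM against control it went from 49.7% to 33.5%, and to 37.5% with upper-quartile factors, which gave 41.1% for neratinib. With totals only it was 38% in neratinib against CM (52.9% with TMM) and 63.4% in CM against TGF-beta (50.4%). With 4 or 5 libraries per group and only 2 lines, interaction tests were imprecise.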
